A study of Mus musculus with 12 samples.

Results

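The MiT transcription factors and the folliculin and Rag proteins that control them were described in colonic epithelial cells of mice with and without epithelial Tfeb. The 10 members were taken by gene symbol, out of 47632 genes in the tables: the MiT factors Tfeb, Tfe3, Tfec and Mitf, the folliculin complex genes Flcn, Fnip1 and Fnip2, and the Rag GTPase genes Rraga, Rragc and Rragd. The comparison addressed whether a related factor took a higher level where Tfeb was deleted. All animals were C57/BL6 mice. Tfeb flox/flox animals carried 2 floxed Tfeb alleles and no Cre, and Tfeb ΔIEC animals carried the same alleles with 1 copy of villin-Cre, which deletes floxed sequence in epithelial cells of the intestine. Colons were taken on Day 0 (basal), Day 4 and Day 11 of an experiment with dextran sodium sulfate (DSS), given at 2.5% by the labels and at another concentration by the methods. The Day 0 samples carry the same DSS label, although the design text calls them basal. DSS injures the colonic epithelium, and Day 11 lay in the recovery on plain water. Each of the 6 groups held 2 animals, aged 12 and 10 weeks on Day 0, 12 weeks on Day 4 and 10 weeks on Day 11, in both genotypes. The Cre was not restricted to the colon, and the sources used here did not name the deleted exons, so that reads from the remaining Tfeb exons would still be counted.

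MiT factors are basic helix-loop-helix leucine zipper proteins that bind as homodimers or as heterodimers with one another to E-box sequences, including those of lysosomal and autophagy genes. At the lysosome, active Rag GTPases (RagA or RagB paired with RagC or RagD) bring mTORC1 and MiT factors to the membrane, where mTORC1 phosphorylates the factors and holds them in the cytosol. Folliculin, with FNIP1 or FNIP2, is a GTPase-activating protein for RagC and RagD and is needed for this phosphorylation. These steps act on protein, which was not measured here.

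The deposited value was 1 FPKM per genotype and day, made by the authors from both animals. FPKM is a level per transcript length, counted in fragments and corrected for depth. The spread between animals could therefore not be computed from these values. The authors' own test results in the tables were not used, and all values below are the authors' pooled values, scaled within a day only. In genes with 1 annotated transcript, FPKM multiplied by transcript length lay on steps, and the lowest step was taken as 1 fragment. By this estimate, which takes the value as the mean of both animals, a library held about 841000 to 1630000 fragments, and each member's FPKM rested on 0 to 37 fragments. Intervals of 95% on these fragments cover counting error only and not the variation between animals. They are too narrow where fragments are amplified copies, which are not independent molecules. Days 4 and 11 were labelled as different animals, yet 14.3% of genes above 0 on both days had the identical FPKM in the Tfeb flox/flox groups and 10.2% did in Tfeb ΔIEC, against 0 genes between Days 0 and 4. Among genes at 1 FPKM or more on both days, 89.8% and 89.1% lay within 1.2-fold between Days 4 and 11, against 19.2% and 28.8% between Days 0 and 4. Of the members, Fnip1 had the identical value on both days in Tfeb flox/flox. Days 4 and 11 are therefore given side by side and not as 2 independent observations.

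**Figure D1:**
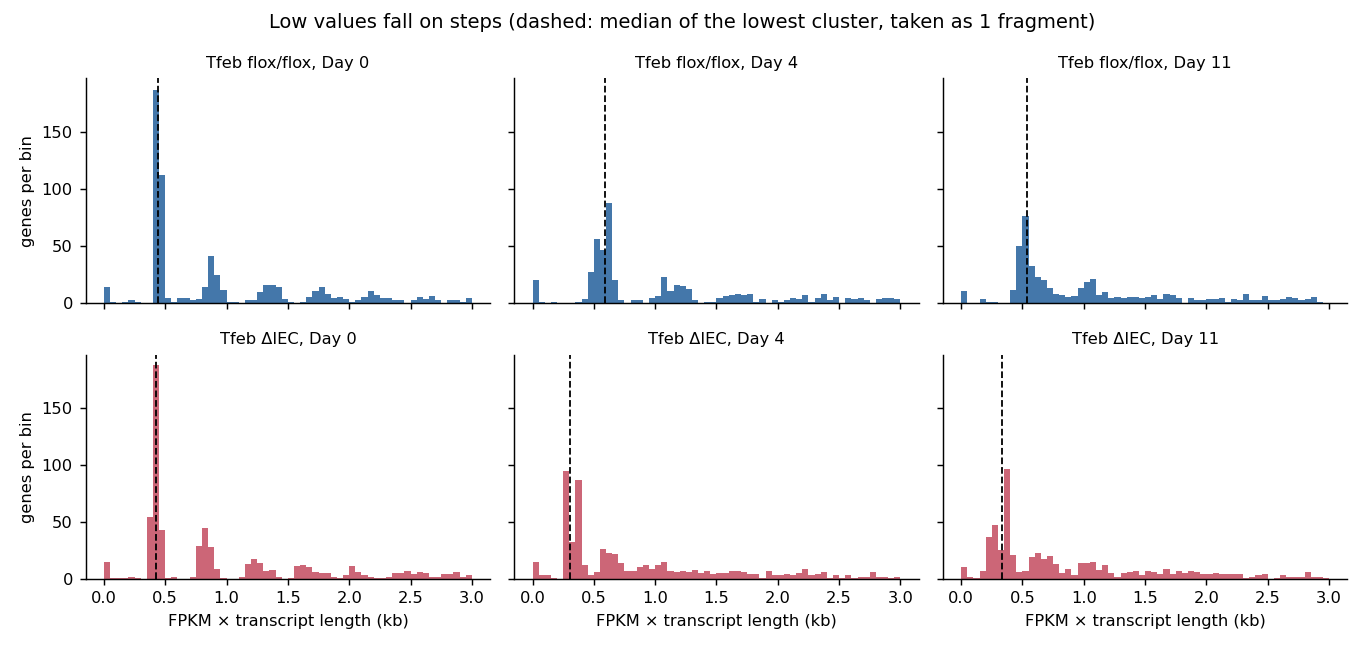
FPKM multiplied by transcript length in kilobases (x axis) against the number of genes per bin (y axis) for genes with 1 annotated transcript, in the 6 groups. The dashed line is the median of the lowest cluster, taken as 1 fragment, at 0.445 and 0.421 on Day 0, 0.594 and 0.308 on Day 4, and 0.533 and 0.329 on Day 11 for Tfeb flox/flox and Tfeb ΔIEC, and the lowest cluster is a single peak on Day 0 and broader or double on Days 4 and 11.

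The sequence bound by MiT factors was searched in RefSeq promoters (GRCm38.p6, from 250 bases before to 50 bases after each start). The E-box CACGTG, which is its own reverse complement, was in 7.15% of 32851 promoters, and the longer core TCACGTGA, which contains it, was in 0.974%. All 10 members matched, with 15 promoters. The E-box was in the promoters of Rragc and Fnip1 and in none of the other 8 members, and the longer core was in none. The Rragc promoter is shown because Rragc differed between the genotypes (below). It lies on the plus strand at chr4:123917183-123917432, ends at the base before the start and carries its E-box, in capitals, 112 bases before the start:
Rragc promoter: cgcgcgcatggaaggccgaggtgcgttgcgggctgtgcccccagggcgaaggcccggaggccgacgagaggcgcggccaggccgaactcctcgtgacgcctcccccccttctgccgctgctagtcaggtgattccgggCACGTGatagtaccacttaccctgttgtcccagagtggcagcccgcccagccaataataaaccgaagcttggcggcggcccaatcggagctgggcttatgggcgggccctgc
The match in Fnip1, the other member with an E-box, is given in a window of 30 bases at chr11:54438092-54438121, on the plus strand:
Fnip1 window: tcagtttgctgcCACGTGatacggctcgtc
A match of letters is a description and not a binding site.

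Tfeb, the targeted gene, was low where present and listed at 0 or near it after deletion. It lies on chromosome 17 (47737030 to 47792419, plus strand, mm10) and is a master regulator of lysosome biogenesis. On Day 0 its FPKM was 0.901 in Tfeb flox/flox against 0.185 in Tfeb ΔIEC, which corresponded to about 5 fragments and 1 fragment. On Day 4 it was 1.08 in Tfeb flox/flox, about 4 fragments, and it was listed at 0 in Tfeb ΔIEC. On Day 11 it was 1.18, about 5 fragments, against a listed 0. The direction was thus that of the genotype labels on each day. For a transcript of its length, 3 fragments corresponded to 0.399 FPKM in Tfeb ΔIEC on Day 4 and to 0.427 FPKM on Day 11, and levels well below these could be listed at 0. The ratio on Day 0 was 4.86-fold lower in Tfeb ΔIEC, with a counting interval of 0.544 to 229.9, so that on Day 0 alone the difference lay within counting error. On the log2(FPKM + 1) scale the differences, Tfeb ΔIEC minus Tfeb flox/flox, were -0.68, -1.06 and -1.13 on Days 0, 4 and 11, and they understate changes of low genes.

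A listed 0 was common at this level. Of genes at 0.5 to 2 FPKM in Tfeb flox/flox, 14.5% on Day 0, 13.2% on Day 4 and 13.6% on Day 11 were listed at 0 in Tfeb ΔIEC. In the other direction, 15% of genes at 0.5 to 2 FPKM in Tfeb ΔIEC were listed at 0 in Tfeb flox/flox on Day 0, 21% on Day 4 and 21% on Day 11.

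Tfe3, a close paralogue of Tfeb that is expressed in many tissues, was the MiT factor with the highest FPKM in every group. It lies on chromosome X (7762560 to 7775202, plus strand). On Day 0 its FPKM was 4.32 in Tfeb flox/flox against 1.90 in Tfeb ΔIEC, from about 31 and 14 fragments. On Day 4 it was 1.56 in Tfeb flox/flox against 3.61 in Tfeb ΔIEC, from about 8 and 37 fragments. On Day 11 it was 2.09 and 2.81, from about 12 and 27 fragments. Tfe3 was therefore lower in Tfeb ΔIEC in the basal state and higher on Days 4 and 11. The ratio was 2.27-fold lower on Day 0 (counting interval 1.17 to 4.62), 2.31-fold higher on Day 4 (1.06 to 5.74) and 1.34-fold higher on Day 11 (0.656 to 2.90). The counting interval left out 1 on Days 0 and 4 and included it on Day 11. Neither the variation between animals nor the change of direction between days could be tested from the pooled values. On the log2(FPKM + 1) scale the differences were -0.87, 0.85 and 0.30, none of them 2-fold. After subtraction of the running median of genes of like transcript length, they were -1.16, 0.20 and -0.37, so that the sign on Day 11 turned. Where each group was divided by the sum of its FPKM, they were -0.87, 1.44 and 0.90, past 2-fold on Day 4.

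Tfec and Mitf, the MiT factors known from macrophages and from melanocytes, osteoclasts and mast cells, were listed at 0 in all 6 groups. For Tfec, on chromosome 6 (16833373 to 16898441, minus strand), 3 fragments corresponded to 0.517 to 0.998 FPKM across the groups. For Mitf, on the same chromosome (97807052 to 98021349, plus strand), they corresponded to 0.434 to 0.838 FPKM. No fragment of either factor was thus listed in Tfeb ΔIEC, and lower levels of both could be missed at this depth, although other members had values from 1 or 2 fragments. Gm15531, a processed pseudogene antisense to Mitf and inside it, had 10.1 FPKM in Tfeb flox/flox on Day 0 and was listed at 0 in the other 5 groups. Strand was not stated to be used in counting, so reads from either strand could not be told apart.

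The summed FPKM of the 4 MiT factors was 5.22 in Tfeb flox/flox against 2.08 in Tfeb ΔIEC on Day 0. On Day 4 it was 2.64 and 3.61, and on Day 11 it was 3.28 and 2.81. The sum in Tfeb ΔIEC thus lay below that in Tfeb flox/flox on Days 0 and 11 and above it on Day 4. Divided by the sum of FPKM of each group, an alternative added after the values were seen, the MiT sum was 5.21 and 2.09 on Day 0, 2.06 and 5.02 on Day 4, and 2.56 and 3.90 on Day 11, so that the order on Day 11 turned. Tfe3 made up 82.7% of the sum in Tfeb flox/flox against 91.1% in Tfeb ΔIEC on Day 0, 59.1% and 100% on Day 4, and 63.9% and 100% on Day 11. Across all 6 groups, Tfe3 was highest in Tfeb flox/flox on Day 0 (4.32), followed by Tfeb ΔIEC on Day 4 (3.61) and Day 11 (2.81), Tfeb flox/flox on Day 11 (2.09), Tfeb ΔIEC on Day 0 (1.90) and Tfeb flox/flox on Day 4 (1.56). The counting intervals of each pair of neighbours in this order overlapped, and days were scaled separately.

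**Figure D2:**
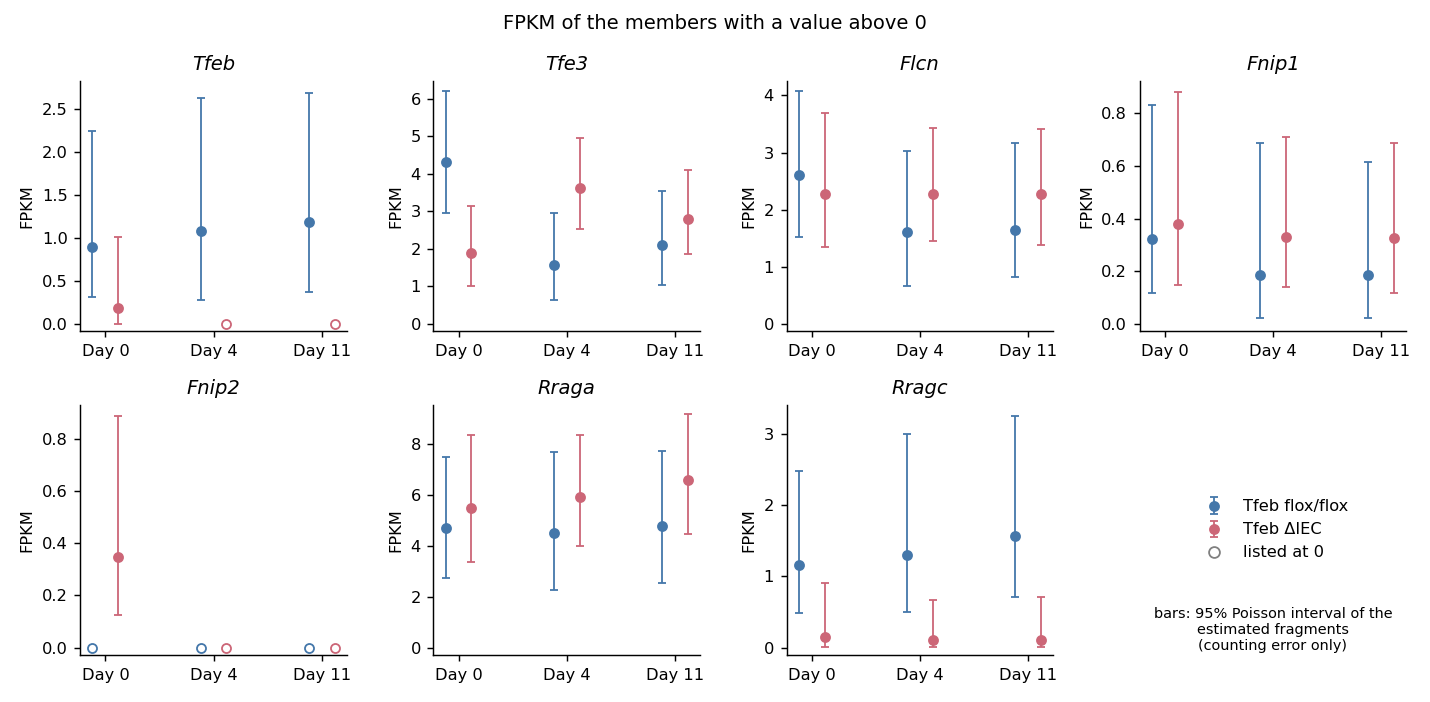
FPKM (y axis, a scale of its own in each panel) of the 7 members with a value above 0, by day (x axis) and genotype, 1 pooled value of 2 animals per point. Bars are 95% Poisson intervals of the estimated fragments, open circles are values listed at 0, and Tfec, Mitf and Rragd were at 0 throughout. Tfeb and Rragc lie lower in Tfeb ΔIEC on every day, and Tfe3 lies lower on Day 0 and higher on Days 4 and 11.

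In the folliculin complex, Flcn alone reached 1 FPKM, and its counting intervals did not separate the genotypes. Flcn, the gene of folliculin (chromosome 11, 59791408 to 59810016, minus strand), had 2.61 FPKM in Tfeb flox/flox against 2.28 in Tfeb ΔIEC on Day 0. Its values were 1.61 and 2.27 FPKM on Day 4, and 1.65 and 2.28 FPKM on Day 11. The 3 Tfeb ΔIEC values of Flcn lay between 2.27 and 2.28. The ratio of Tfeb ΔIEC to Tfeb flox/flox was 0.876 on Day 0 (counting interval 0.424 to 1.80), 1.41 on Day 4 (0.609 to 3.64) and 1.38 on Day 11 (0.623 to 3.29), which all include 1 and reach beyond 3-fold on Days 4 and 11. Divided by the sums of FPKM, its difference was 0.88 on Day 4 and 0.87 on Day 11, against 0.32 and 0.31 as deposited.

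Fnip1, a folliculin partner on chromosome 11 (54438199 to 54518235, plus strand), stayed between 0.185 and 0.378 FPKM in the 6 groups, from about 2 to 7 fragments. It had 0.322 FPKM in Tfeb flox/flox against 0.378 in Tfeb ΔIEC on Day 0, 0.185 and 0.329 on Day 4, and 0.185 and 0.328 on Day 11. Each ratio had a counting interval that included 1 and was wide, from 0.338 to 17.5 on Day 4. Fnip2, the other partner, lies on chromosome 3 (79455974 to 79567796 in GENCODE, minus strand), and its deposited locus was wider, from 79336661. It had 0.347 FPKM in Tfeb ΔIEC on Day 0, about 5 fragments, and was listed at 0 in the other 5 groups. Beside it, 3 fragments corresponded to 0.241 FPKM in Tfeb flox/flox on Day 0. With the running median of their length subtracted, the differences of Flcn turned from 0.32 to -0.30 on Day 4 and from 0.31 to -0.35 on Day 11, those of Fnip1 from 0.06, 0.17 and 0.16 to -0.33, -0.07 and -0.13 on Days 0, 4 and 11, and that of Fnip2 on Day 0 from 0.43 to -0.01.

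Rraga, the gene of RagA, had the highest FPKM of the members in every group. It is a gene of 1 annotated transcript of 1618 nt that fills its locus on chromosome 4 (86575668 to 86577285, plus strand), so it has a single exon. Its FPKM was 4.68 in Tfeb flox/flox against 5.50 in Tfeb ΔIEC on Day 0, 4.50 and 5.92 on Day 4, and 4.78 and 6.59 on Day 11, from about 12 to 32 fragments. It was higher in Tfeb ΔIEC on each day, by a ratio of 1.17 (counting interval 0.590 to 2.37), 1.31 (0.656 to 2.81) and 1.38 (0.716 to 2.80), which all include 1.

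Rragc, the gene of RagC, was the only member with a value above 0 in all groups that was lower in Tfeb ΔIEC by several-fold on all 3 days. It lies on chromosome 4 (123917446 to 123936997, plus strand) and has a transcript of 2593 nt. On Day 0 its FPKM was 1.16 in Tfeb flox/flox, about 7 fragments, and 0.155 in Tfeb ΔIEC, about 1 fragment. On Day 4 it was 1.30, about 6 fragments, against 0.110, about 1 fragment. On Day 11 it was 1.57, about 8 fragments, against 0.112, about 1 fragment. The ratio was 7.47-fold lower on Day 0 (counting interval 0.960 to 336.8), 11.8-fold lower on Day 4 (1.43 to 543.3) and 13.95-fold lower on Day 11 (1.87 to 619.1). The interval thus included 1 on Day 0 and left it out on Days 4 and 11. On the log2(FPKM + 1) scale the differences were -0.90, -1.05 and -1.21, and -1.18, -1.75 and -1.95 once the running median of genes of its length was subtracted. The ratio of Rraga to Rragc FPKM in Tfeb flox/flox was 4.04 on Day 0 (counting interval 1.59 to 11.5), 3.46 on Day 4 (1.20 to 11.2) and 3.05 on Day 11 (1.19 to 8.39). In Tfeb ΔIEC, where Rragc rested on about 1 fragment, it was 35.5 (5.71 to 1468), 53.6 (8.94 to 2186) and 58.7 (9.81 to 2391), and the intervals of the genotypes overlapped on Days 0 and 4. Rragd, the gene of RagD on chromosome 4 (32983037 to 33022180, plus strand), and Rragb, the gene of RagB and no member, were listed at 0 in all 6 groups. For Rragd, 3 fragments corresponded to 0.184 to 0.356 FPKM.

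A gene was counted as different where log2(FPKM + 1) differed by at least 2-fold and the FPKM was 1 or more in either genotype. On Day 0, 4 of the 10 members reached that level (Tfe3, Flcn, Rraga and Rragc), and 0 were 2-fold higher or lower, where 13.5% of all genes at that level were higher and 16.1% were lower. On Day 4, 5 members reached it, and Tfeb and Rragc were lower, where 25.6% of all genes were higher and 26.1% lower. On Day 11 the same 5 members reached it, and Tfeb and Rragc were again lower, where 26.1% were higher and 25.7% lower. No member was 2-fold higher on the log2(FPKM + 1) scale on any day, although the plain FPKM ratio of Tfe3 was past 2-fold on Day 4, while division by the sum of FPKM put Tfe3 and Rraga past 2-fold higher on Day 4 and Rraga on Day 11, and a pseudocount of 0.1 FPKM put Tfe3 past it on Day 4. On Day 0 the plain FPKM ratios of Tfe3 (2.27) and Rragc (7.47) were past 2-fold lower, and that pseudocount counted both as lower. Tfeb and Rragc reached the level only through their Tfeb flox/flox values, so that their count is a description. Of all genes counted, 24.6% had a lower difference than Tfeb and 24.8% a lower difference than Rragc on Day 4, and 22.7% and 21.0% on Day 11. Where each group was divided by the sum of its FPKM, Tfeb and Rragc fell short of 2-fold on the log2(FPKM + 1) scale on Days 4 and 11. For Tfeb, still at 0 in Tfeb ΔIEC, only the Tfeb flox/flox value became lower, so that its difference is no measure of a smaller loss. This scaling also moved the median difference of all genes from 0.06 to 0.75 on Day 4 and from 0.08 to 0.77 on Day 11, and the share of higher genes among those past 2-fold from 49.6% to 73.3% and from 50.4% to 73.9%.

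**Figure D3:**
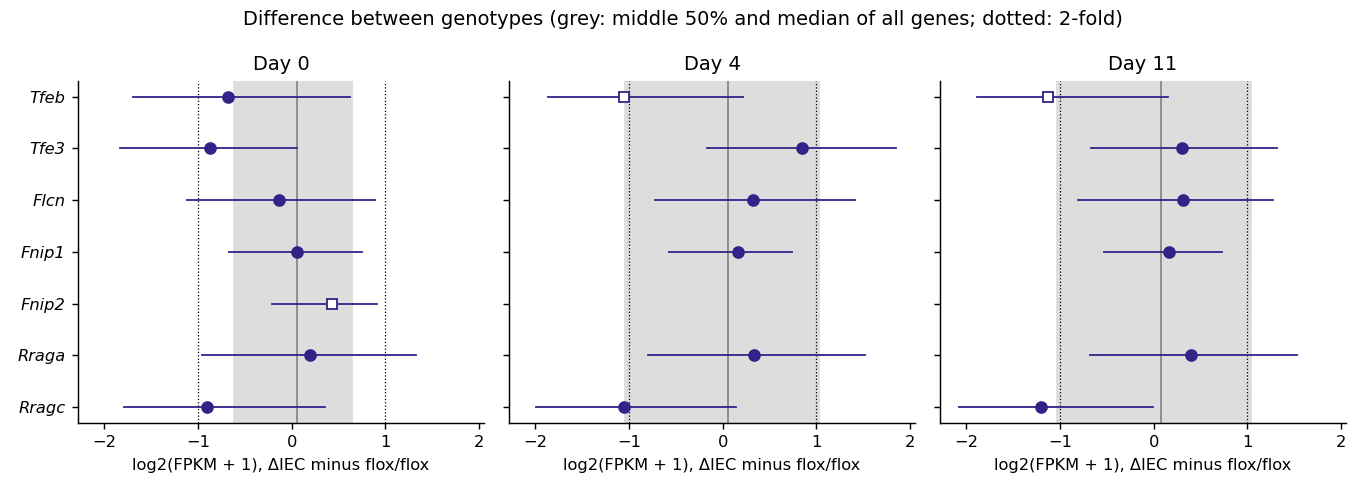
Difference in log2(FPKM + 1), Tfeb ΔIEC minus Tfeb flox/flox (x axis), of each member with a value (y axis) on the 3 days. Points are the pooled values (open squares where 1 genotype was listed at 0), lines the widest difference that the counting intervals allow, the grey band the middle 50% of all genes and the dotted lines 2-fold. Tfeb and Rragc lie past the left dotted line on Days 4 and 11, and Tfe3 moves from -0.87 on Day 0 to 0.85 on Day 4.

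The genes nearest to Tfeb and to Tfe3 in pattern were taken by the distance between log2(FPKM + 1) values over the 6 groups, among 11174 genes. None were taken for Tfec and Mitf, which were below 1 FPKM in all groups. Those nearest to Tfeb were Vac14 (distance 0.147), A530020G20Rik (0.255) and Gm4799 (0.256). All 3 had 0.874 to 1.12 FPKM in Tfeb flox/flox and 0 to 0.315 FPKM in Tfeb ΔIEC, and at such levels a listed 0 was common (above). Vac14, a scaffold of the enzyme complex that makes PI(3,5)P2 on endolysosomes, had 0.874, 0.968 and 1.11 FPKM in Tfeb flox/flox on Days 0, 4 and 11, and 0.279, 0 and 0 in Tfeb ΔIEC. Those nearest to Tfe3 were Vps37c (0.364), a subunit of the ESCRT-I complex, H2-Q1 (0.364) and Coro7 (0.409).

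The other genes of the pathway were read from lists, in order from the lysosomal surface to the nucleus. Ragulator is the scaffold of 5 LAMTOR subunits that anchors the Rag GTPases, and SLC38A9 is an amino acid transporter that acts with it. All 5 Lamtor genes reached 1 FPKM. None was 2-fold different on Day 0, where 13.5% of all genes were higher and 16.1% lower, with a list median of -0.07. On Day 4, 3 of 5 were lower in Tfeb ΔIEC: Lamtor2 at 184.9 and 58.2 FPKM, Lamtor1 at 56.7 and 19.98 FPKM, and Lamtor5 at 17.2 and 6.66 FPKM, where 26.1% of all genes were lower. The same 3 were lower on Day 11, where 25.7% of all genes were lower. The list median was -1.25 on Day 4 and -1.25 on Day 11, against 0.06 and 0.08 for all genes. The Lamtor transcripts are 618 to 1014 nt long, and the shortest 10% of transcripts had a median of -1.83 on Day 4 and -1.81 on Day 11. With the running median of their length subtracted, the list median was -0.34 and -0.31, and 0.29 on Day 0, where its sign turned. Divided by the sums of FPKM, it was -0.49 on Day 4 and -0.50 on Day 11.

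GATOR1 is a GTPase-activating protein for RagA and RagB, GATOR2 opposes it, and KICSTOR tethers GATOR1 to the lysosome. Of 18 genes listed, 16 were in the tables, and 10, 11 and 11 reached 1 FPKM on Days 0, 4 and 11. None was 2-fold different on Day 0, where 13.5% of all genes were higher and 16.1% lower. On Day 4, 3 were higher in Tfeb ΔIEC, namely Itfg2 of KICSTOR (0.954 and 13.4 FPKM), Depdc5 of GATOR1 (0.0728 and 2.37 FPKM) and Wdr24 of GATOR2 (0.357 and 1.89 FPKM). On Day 11 these 3 and Nprl2 of GATOR1 (0.385 and 2.33 FPKM) were higher, and 0 were lower on either day. These counts stood beside 25.6% and 26.1% of all genes higher and 26.1% and 25.7% lower on Days 4 and 11, and each of these genes reached 1 FPKM only through its Tfeb ΔIEC value. The list medians were -0.10, 0.46 and 0.34, and 1.05 and 1.02 on Days 4 and 11 when divided by the sums of FPKM. With the running median of their length subtracted, they were 0.21 on Day 4 and 0.047 on Day 11, and without the filter on FPKM 0.18 and 0.25.

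For mTORC1, the TSC complex that inhibits it and the GTPase Rheb that activates it, 7, 6 and 6 of 9 genes reached 1 FPKM. Rheb was higher on Day 4 (7.03 and 18.5 FPKM) and on Day 11 (5.20 and 17.3 FPKM). Mtor, the kinase itself, was lower on Day 11 (3.62 and 1.12 FPKM) and short of 2-fold on the log2(FPKM + 1) scale on Day 4 (3.10 and 1.10 FPKM, a difference of -0.97). Of all genes, 25.6% were higher on Day 4, and 26.1% were higher and 25.7% lower on Day 11. The list medians of 0.18, -0.22 and 0.00 changed sign with the scaling or the length correction.

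The calcineurin, TRPML1, 14-3-3 and nuclear export list held 15 genes whose products dephosphorylate MiT factors, release the lysosomal calcium that starts this, phosphorylate the factors, or hold or carry them out of the nucleus. On Day 0, 3 of 12 were higher: Xpo1, the export receptor (0.410 and 7.30 FPKM), Ywhah, a 14-3-3 protein (8.59 and 26.1 FPKM), and Ppp3r1, the regulatory subunit of calcineurin (2.11 and 7.34 FPKM), where 13.5% of all genes were higher. Xpo1 reached 1 FPKM only through its Tfeb ΔIEC value. On Day 4, 4 of 12 were higher: Ywhae (18.4 and 92.9 FPKM), Ywhah (6.64 and 26.3 FPKM), Ywhaz (9.10 and 34.8 FPKM) and Ppp3r1 (1.34 and 6.89 FPKM), where 25.6% of all genes were higher. The same 4 were higher on Day 11, where 26.1% were, and 0 were lower on Days 0, 4 and 11, where 16.1%, 26.1% and 25.7% of all genes were lower. The list medians were 0.38, 0.74 and 0.71, and 0.13, 0.15 and 0.15 with the running median of their length subtracted. Divided by the sums of FPKM, they were 1.46 and 1.41 on Days 4 and 11. Without the filter on FPKM they were 0.03, 0.55 and 0.56 on the 3 days, and with a filter of 5 FPKM the median was 1.28 on Day 4 and 1.29 on Day 11. Mcoln1, the gene of the calcium channel TRPML1, had 11.7 and 9.34 FPKM on Day 0 and 3.45 and 6.84 FPKM on Day 4.

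Known target genes of MiT factors, 26 in number, code mostly for lysosomal enzymes and autophagy proteins. They include the members Flcn, Fnip2, Rragc and Rragd. On Day 0, 1 of 22 was higher in Tfeb ΔIEC, Atp6v1h (7.10 and 19.3 FPKM), a subunit of the proton pump that acidifies lysosomes. On that day 3 were lower, namely Gla, a lysosomal glycosidase gene (4.03 and 0.124 FPKM), Uvrag, of autophagy and endosomal traffic (3.32 and 0.526 FPKM), and Tmem55b (10.6 and 4.11 FPKM). Of all genes, 13.5% were higher and 16.1% lower on that day. On Day 4, 6 of 20 were higher: the genes Scpep1, Ctsa and Ctsd of lysosomal proteases, Psap, whose product activates sphingolipid breakdown, the autophagy receptor gene Sqstm1, and Tmem55b, where 25.6% of all genes were higher. Uvrag and Rragc were lower on that day, where 26.1% of all genes were lower. On Day 11, 7 of 20 were higher, these 6 and Vps11, and the same 2 were lower, where 26.1% and 25.7% of all genes were. On both days Scpep1 and Tmem55b reached 1 FPKM only through their Tfeb ΔIEC values. On Day 4 they had 0.601 and 10.3 FPKM, and a listed 0 and 2.39 FPKM. The same held for Vps11 on Day 11 (0.398 and 1.81 FPKM). Uvrag and Rragc reached 1 FPKM only through their Tfeb flox/flox values, as did Gla and Uvrag on Day 0. The list medians were 0.20, 0.80 and 0.74, and -0.08, 0.29 and 0.24 with the running median of their length subtracted. Divided by the sums of FPKM, they were 1.40 and 1.39 on Days 4 and 11, and without the filter on FPKM 0.53 and 0.61.

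The values of 3 of these genes are given for all groups, with the limit that days were scaled separately. Psap had 79.0, 18.3 and 18.4 FPKM in Tfeb flox/flox on Days 0, 4 and 11, and 95.03, 95.3 and 98.0 FPKM in Tfeb ΔIEC. Ctsd had 73.8, 25.7 and 25.2 FPKM in Tfeb flox/flox, and 87.1, 91.4 and 84.2 FPKM in Tfeb ΔIEC. Sqstm1 had 69.7, 17.5 and 16.2 FPKM against 68.2, 105.8 and 100.8 FPKM. These 3 genes were picked after their values were seen, and other target genes differed from them. Neu1, a sialidase gene, had 20.5 and 14.1 FPKM in Tfeb ΔIEC on Days 0 and 4, and Lamp1, of the lysosomal membrane, had 9.41 and 17.2 FPKM in Tfeb flox/flox.

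Of the 22 target genes with a RefSeq promoter, 7 (31.8%) held the E-box and 5 (22.7%) the longer core, against 8.09% and 1.12% of all 27025 genes with a promoter. The 5 genes are shown with the longer core in capitals, 1 window each, because this core is the sequence that MiT factors are known to bind in lysosomal genes:
Ctsa (chr2:164833749-164833778, plus strand): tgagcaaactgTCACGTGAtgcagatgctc
Ctsd (chr7:142387908-142387937, minus strand): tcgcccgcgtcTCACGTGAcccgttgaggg
Mcoln1 (chr8:3500462-3500491, plus strand): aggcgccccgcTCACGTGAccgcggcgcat
Atp6v0d1 (chr8:105566050-105566079, minus strand): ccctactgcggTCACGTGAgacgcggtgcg
Gla (chrX:134601215-134601244, minus strand): taagcgattgaTCACGTGAgcatctacgtc
On Day 4, Ctsa (10.9 and 70.0 FPKM) and Ctsd (25.7 and 91.4 FPKM) were more than 2-fold higher in Tfeb ΔIEC. Mcoln1 and Atp6v0d1 differed by 0.82 and 0.15, and Gla had 0.158 FPKM against a listed 0. Genes with and without the longer core were thus among those that were higher, since Psap, Sqstm1 and Scpep1 hold no E-box in this window.

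**Figure D4:**
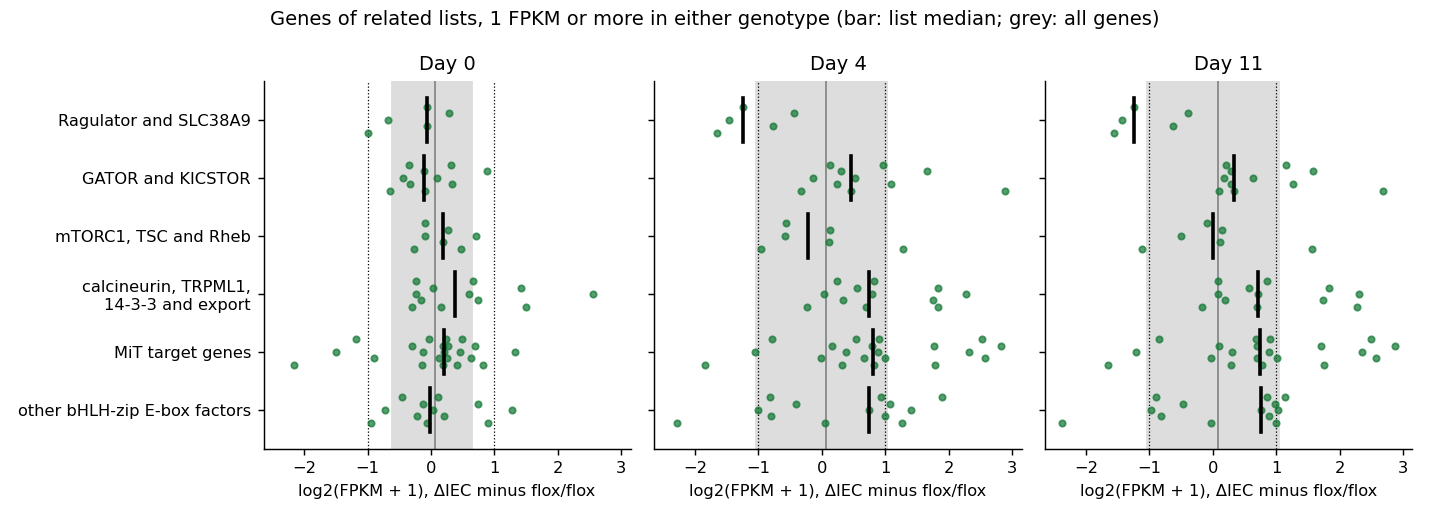
Difference in log2(FPKM + 1), Tfeb ΔIEC minus Tfeb flox/flox (x axis), of the genes of 6 lists that reached 1 FPKM in either genotype (1 point per gene), on the 3 days. Black bars are list medians, the grey band and line the middle 50% and median of all genes, and the dotted lines 2-fold. The Ragulator median is at -1.25 on Days 4 and 11 and the MiT target median at 0.80 and 0.74.

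The labelled cell type was checked with marker genes. All 9 epithelial markers were above 0 in every group, with a summed FPKM of 7461 to 13375, most of it from keratins and Cldn7. Single epithelial markers differed between the genotypes on Day 4, with Krt20 at 101.4 and 931.4 FPKM, Vil1 at 30.6 and 224.4 FPKM, Cdh1 at 24.5 and 164.1 FPKM and Krt8 at 1865 and 1481 FPKM (Tfeb flox/flox first). The 12 macrophage and myeloid markers in the tables summed to 15.1 and 10.2 FPKM on Day 0, 17.4 and 30.3 on Day 4, and 17.3 and 33.2 on Day 11, with Adgre1, Cd68 and C1qc at 0 in all groups. On Day 4 the sum was carried by Fcer1g (5.91 and 14.6 FPKM) and Cd14 (1.46 and 9.11 FPKM), while 5 of the 13 rows of these markers were higher in Tfeb ΔIEC and 4 were lower, among them Tyrobp (4.47 FPKM and a listed 0) and Lyz2 (2.88 and 1.77 FPKM). The 9 lymphocyte markers summed to 9.24 and 2.90 FPKM on Day 0, 1.35 and 6.30 on Day 4, and 1.26 and 6.69 on Day 11, with Cd4 at 0 in all groups. Both sums were ordered between the genotypes as Tfe3 was on each day, and their part in Tfe3 or in the MiT target genes was not tested, nor was that of the epithelial markers. The 6 mast cell markers summed to 4.15 to 8.23 FPKM, with Cpa3, Fcer1a and Ms4a2 at 0 in all groups. Most of that sum came from Kit (1.13 to 6.11 FPKM) and Mcpt1 (0 to 4.10 FPKM). Stromal and endothelial markers summed to 0.667 to 2.93 FPKM. In such bulk samples, fewer cells of a type and less RNA per cell cannot be told apart.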

How the data were processed

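RNA-seq of colonic epithelial cells from 12 animals was used, 2 per genotype and day, with groups from the labels. Full-length cDNA was made by the authors with template switching, and they sequenced it on a MiSeq as paired ends, mapped reads to mm10 with TopHat2 (2.0.14) and Bowtie, and ran Cuffdiff (2.1.1) for each day. The gene annotation is not given in the sources used here. The 3 deposited tables hold 1 FPKM per genotype, pooled over both animals. Their columns of the authors' fold changes, test statistics, p and q were not used.

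Differences were computed as log2(FPKM + 1), and a gene was counted at 2-fold or more with an FPKM of 1 or more in either genotype. The counts describe pooled values and are no test. Members and lists were chosen with earlier results of these data known. Transcript lengths are medians over GENCODE M21 basic transcripts (47218 of 47632 genes). For the fragment estimate, genes with 1 annotated transcript of 1500 to 6000 nt were used, and the median of the lowest cluster of FPKM × kb was taken as 1 fragment. A member's fragments follow from its median transcript length. Intervals on levels are 95% Poisson, those on ratios are exact (Clopper-Pearson) on the 2 fragment numbers, and 3 fragments set the lowest level printed for a listed 0. The estimate and the range of 0.5 to 2 FPKM were chosen after the values were seen. The running median over length used 501 genes of at least 200 nt. Named genes are the members, genes of a list where that list is described, and the 3 genes with the smallest Euclidean distance to Tfeb and to Tfe3, among genes of 1 FPKM or more in at least 1 group. The 3 target genes given for all groups were picked after their values were seen. Promoters are from RefSeq. Protein sequences were not analysed here, and the results of 2 target genes are not reported. The scripts were checked on simulated data (Python 3.11.15, numpy 2.4.6, pandas 2.3.3, scipy 1.17.1).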

Additional observations from a re-analysis of the deposited data

How the results depend on the processing

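Of 276 values recomputed under other settings, 245 moved by less than their interval, or by less than 1.5 times for counts, and 31 moved further. A reversal was looked for only in differences counted as 2-fold, those of Tfeb and Rragc on Days 4 and 11. Of these, 0 reversed, but a changed pseudocount could not have turned their sign. Smaller differences that changed sign within their interval stand among the 245. Examples on Day 11 are Tfe3 (0.30 to -0.37 with the running median subtracted) and the MiT sum (-0.17 to 0.46 with division by the sums). With a pseudocount of 0.1 FPKM, the difference of Tfeb was -1.81, -3.56 and -3.68 on Days 0, 4 and 11, that of Rragc was -2.30, -2.74 and -2.97, that of Fnip2 on Day 0 was 2.16, and the median of the other basic helix-loop-helix zipper factors on Day 11 was 0.999. This pseudocount, a threshold of 1.5-fold, and subtraction of the running median over length each gave 2 members lower on Day 0 (Tfe3 and Rragc), and the first 2 of these gave 1 member higher on Day 4 (Tfe3). Division by the sum of FPKM gave 2 members higher on Day 4 (Tfe3 and Rraga), 1 on Day 11 (Rraga) and 0 lower on both days, and medians of 1.41 and 1.28 for the other zipper factors. A pseudocount of 5 FPKM, a threshold of 4-fold and an FPKM of at least 5 each gave 0 members lower on Days 4 and 11. For Tfeb and Rragc this was fixed in advance. With at most 1.18 and 1.57 FPKM on these days, even a fall to 0 could not have been counted under these settings. Subtraction of the running median gave list medians of -0.34 and -0.31 for Ragulator on Days 4 and 11, 0.289 and 0.236 for the MiT target genes on Days 4 and 11, 0.15 for the calcineurin list on Day 4 and 0.047 for GATOR and KICSTOR on Day 11. With a pseudocount of 5 FPKM, 28.7%, 40.7% and 40.6% of all genes past 2-fold were higher on Days 0, 4 and 11, against 45.6%, 49.6% and 50.4%. No paired analysis was run because the FPKM values used here pool both animals of a group, and for the same reason no animal was left out.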

Other observations

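Other basic helix-loop-helix zipper factors that bind E-boxes, 16 in number and outside the MiT family, were read in the same way. On Day 0, 1 of 12 was higher in Tfeb ΔIEC, Usf2 (0.466 FPKM in Tfeb flox/flox and 2.55 FPKM after deletion), where 13.5% of all genes were higher and 16.1% lower. On Day 4, 4 of 13 were higher, namely Mlx, the dimer partner of the glucose-responsive Mondo factors (40.3 and 86.2 FPKM), Srebf1, a regulator of lipid synthesis (3.47 and 10.9 FPKM), Mycl (a listed 0 and 2.71 FPKM) and Mxd3 (a listed 0 and 1.40 FPKM). On that day Usf2 (6.54 and 0.543 FPKM) and Usf1 (8.75 and 3.87 FPKM), the upstream stimulatory factors, were lower. Of all genes, 25.6% were higher and 26.1% lower on Day 4, and 26.1% and 25.7% on Day 11. On Day 11, Mycl and Mxd3 were higher and Usf2 was lower, while Mlx (37.7 and 76.2 FPKM) and Usf1 (8.83 and 3.98 FPKM) were just short of 2-fold on the log2(FPKM + 1) scale, with differences of 0.99 and -0.98. Usf2 thus stood in opposite order on Day 0 and on Days 4 and 11. Mycl and Mxd3, and Usf2 on Day 0, reached 1 FPKM only through their Tfeb ΔIEC values. On Days 4 and 11, Usf2 reached it only through its Tfeb flox/flox value. Mlx lay above every MiT factor in each group, and Usf1 lay above each MiT factor of the same group. The list medians were -0.01, 0.74 and 0.76 on the 3 days, and -0.34, 0.28 and 0.30 with the running median of their length subtracted. Without the filter on FPKM they were 0.13 and 0.09 on Days 4 and 11.

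Rragb, the gene of RagB, was listed at 0 throughout, and its promoter held 3 E-boxes. The Rragc promoter held 1, and those of Rraga and Rragd held 0.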
